A study of Mus musculus with 6 samples.

Results

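The genes described here code for the structures that join intestinal epithelial cells to each other: 33 genes of tight junctions, adherens junctions, desmosomes and gap junctions, of 31227 genes in the count table. The rule names them by the known place of their proteins in junctions and uses no measured value, although earlier results of these data were known when the list was drawn up. They comprise 9 claudins, 7 other tight junction genes, 6 adherens junction genes, 8 desmosome genes, the adhesion molecule Epcam and 2 connexins. All 33 were found in the table by their Ensembl identifiers, and 33 of 33 passed the filter on low counts. RNA was sequenced from mouse intestinal organoids, small cultures of gut epithelium grown from stem cells, in 6 libraries. The groups were wild type (WT), Smad4-deficient (Smad4 KO) and Smad4-deficient with 0.5 nM TGF-β, with 2 libraries in each. Smad4 is the shared partner through which other SMAD proteins relay TGF-β and BMP signalling to genes. Every group was grown with EGF, the Wnt amplifier R-spondin1 and Noggin, an inhibitor of BMP ligands, so the WT organoids received it too. All titles give 48 h, while the protocol can be read as adding 2 more days with TGF-β. How Smad4 was deleted, the mouse strain and age, and whether the replicates were separate cultures or animals are not stated in the labels. The p-values therefore measure the spread between these libraries, which may be technical. A difference between the organoid lines cannot be told apart from the genotype, and no WT organoids with TGF-β were analysed here.

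Tight junctions seal the space between neighbouring cells near their tops. Claudins form the strands: some of them tighten the seal, while claudin-2 and claudin-15 form pores for small cations and water in the gut. Occludin, tricellulin and JAM-A lie beside the claudins, and the ZO proteins and cingulin tie the strands to actin. Adherens junctions below hold cells together through E-cadherin, which binds β-catenin and p120-catenin inside the cell, with α-catenin as the link to actin. Desmosomes use desmosomal cadherins, plakoglobin, plakophilins and desmoplakin to anchor keratin filaments. Gap junctions are channels of connexins through which small molecules pass from cell to cell.

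The libraries held 40549534 to 50699356 estimated counts. Smad4, the deleted gene, had WT levels of 99.37 and 109.46 CPM (counts scaled to the library's total after TMM normalization, the unit of all levels here). Its levels were 21.66 and 23.07 CPM in Smad4 KO, 4.67-fold lower (edgeR adjusted p = 2.7e-05), and 25.19 and 29.52 CPM with TGF-β. All Smad4 KO libraries, treated or not, thus lay below both WT libraries. The epithelial label fitted the defining markers: the summed level of 7 epithelial genes (Vil1, Cdx2, Krt8, Krt18, Krt20 and the members Epcam and Cdh1) was 5918 to 5981 CPM in WT, 8016 to 8063 CPM in Smad4 KO and 10646 to 10778 CPM with TGF-β. Markers of other sources of RNA were at or near 0, with 6 fibroblast markers summing to between 0 and 0.479 CPM and 4 endothelial markers to between 0.229 and 0.949 CPM over all libraries, and 5 leukocyte markers to between 1.46 and 2.06 CPM. Among fibroblast markers Col1a2, Col3a1, Dcn and Lum were at 0 in every library, as were the endothelial markers Cdh5 and Kdr. The make-up of the epithelium moved with the groups. The summed level of 10 enterocyte markers was 3518 CPM in both WT libraries, 10383 to 10476 CPM in Smad4 KO and 6487 to 6511 CPM with TGF-β. Single enterocyte markers did not all follow this sum. In Smad4 KO against WT 9 passed as higher and Anpep as lower (16.9% and 13.4% of all genes tested). In treated Smad4 KO against WT 5 passed as higher and 3 as lower (20.7% and 19%), with Apoa1 8.64-fold higher and Anpep 3.04-fold lower. The summed level of 6 stem cell markers was 5403 to 5464, 2987 to 3018 and 1686 to 1696 CPM in the same order of groups. The 6 goblet cell markers summed to 4568 to 4574, 3591 to 3702 and 1883 to 1899 CPM. Paneth cell markers (5 genes) summed to 6645 to 6647, 2520 to 2650 and 2557 to 2649 CPM, enteroendocrine markers (6 genes) to 905 to 917, 369 to 383 and 353 to 363 CPM, and proliferation genes (5) to 1795 to 1827, 1272 to 1278 and 1196 to 1211 CPM. The 6 fetal and regenerative markers summed to 109 to 129, 493 to 524 and 2981 to 3060 CPM in the same order. Some of these other lists were mixed too. In Smad4 KO against WT, 1 goblet cell marker passed as higher and 4 as lower. Of the fetal and regenerative markers, 4 passed as higher and 1 as lower there. With TGF-β in Smad4 KO, 2 Paneth cell markers rose and 0 fell (7.78% and 8.48% of all genes tested). In treated Smad4 KO against WT, 1 Paneth cell marker passed as higher and 4 as lower. The part of these shifts in the junction results was not tested. In bulk RNA, fewer cells of a type and less RNA per cell cannot be told apart.

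The sequences just upstream of a RefSeq transcript start of 3 members are shown because these genes moved in opposite ways: Cldn4 rose and Cldn15 fell when TGF-β was added, and Gjb2 fell in Smad4 KO. They are RefSeq promoter windows (GRCm38.p6, 5′ to 3′ along the gene) of 250 bases ending at the transcript start, shortened to 225 bases for Cldn15, where an annotated exon begins. The RefSeq start of Cldn15 lies 1253 bases downstream of the gene's start in GENCODE, so its window lies inside the annotated gene. Capitals mark matches, on either strand, to GGAATG (the core bound by TEAD factors, the partners of YAP), CAGGTG (an E-box bound by Snail and Zeb factors) or TGAGTCA (the AP-1 element). The runs of capitals do not overlap one another.
Cldn4, chr5:134946935-134947184, minus strand: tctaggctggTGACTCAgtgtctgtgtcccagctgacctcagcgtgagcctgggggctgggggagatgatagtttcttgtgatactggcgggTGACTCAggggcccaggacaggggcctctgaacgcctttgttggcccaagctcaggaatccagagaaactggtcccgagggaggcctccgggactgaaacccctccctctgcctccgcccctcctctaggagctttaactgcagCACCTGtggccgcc
Cldn15, chr5:136967619-136967843, plus strand: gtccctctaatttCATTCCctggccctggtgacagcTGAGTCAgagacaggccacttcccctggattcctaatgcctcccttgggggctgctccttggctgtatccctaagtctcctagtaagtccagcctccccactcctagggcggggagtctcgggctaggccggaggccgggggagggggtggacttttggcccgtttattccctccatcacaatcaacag
Gjb2, chr14:57104703-57104952, minus strand: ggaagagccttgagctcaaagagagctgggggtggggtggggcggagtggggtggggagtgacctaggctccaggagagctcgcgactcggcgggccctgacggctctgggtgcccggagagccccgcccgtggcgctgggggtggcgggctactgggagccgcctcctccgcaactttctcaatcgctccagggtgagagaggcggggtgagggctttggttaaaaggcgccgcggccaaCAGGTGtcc

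The Cldn4 window held 2 matches to the AP-1 element and 1 E-box, the Cldn15 window 1 AP-1 element and 1 TEAD core, and the Gjb2 window 1 E-box. Windows were at hand for 22 of the 33 members, 33 windows in all, some of which overlap where a gene has starts close together (Cldn12, for example). For 24 of the 33 windows, the first 20 transcribed bases occurred in a GENCODE transcript of the gene. The Cldn2 window and every Gjb1 window lacked this match, so their starts are less certain. The AP-1 element occurred in 3 of these 33 windows (Cldn4, Cldn15 and F11r) and in 4.5% of 32817 windows of all genes. E-boxes occurred in 10 of 33 windows and in 17.2% of all, and the TEAD core in 4 of 33 (genes Cldn2, Cldn7, Cldn15 and Gjb1) and in 12.6% of all. Of the TCF/LEF motifs, through which Wnt signals reach DNA, CTTTGAT was found in 0 of 33 windows (3.2% of all) and CTTTGAA in 1 (Gjb1, 4.5% of all). A match describes the letters of the window and is not evidence of binding.

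In untreated organoids most junction genes were slightly higher when Smad4 was lost. Of the 33 members, 22 rose and 1 fell in Smad4 KO against WT (edgeR adjusted p under 0.05), and 10 did not pass. Of all 15503 genes tested, 16.9% rose and 13.4% fell in this comparison (30.3% in either direction). Abundant genes pass more readily: where the mean level was 10 CPM or more, the shares were 23.5% and 17.1%. The median log2 fold change was 0.23 over the 33 members and -0.02 over all genes tested. With library totals in place of TMM scaling, 2125 genes rose and 2926 fell in place of 2620 and 2084, and 17 members rose and 2 fell. With upper quartile scaling the numbers were 2261 and 2655 genes, and 19 and 2 members. The desmoplakin gene Dsp rose most, 1.82-fold, and the connexin gene Gjb2 was the member that fell, 2.07-fold.

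Adding TGF-β to Smad4 KO organoids raised 15 of the 33 members and lowered 2, both of them claudins. Over all genes tested 7.78% rose and 8.48% fell (16.3% in either direction), and 9.68% and 12.2% among those averaging 10 CPM or more. The median log2 fold change of the members was 0.3, against -0.01 over all genes tested. Ppl (periplakin) rose 2.04-fold, Cldn4 1.91-fold and Dsp 1.77-fold, while Cldn15 fell 1.62-fold and Cldn3 1.31-fold. This comparison shares the Smad4 KO libraries with the one before, so changes that go up in one and down in the other are not independent of each other.

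Set directly against WT, the TGF-β-treated Smad4 KO organoids had 21 members higher and 2 lower. The shares over all genes tested were 20.7% higher and 19% lower (39.7% in either direction), and 27% and 23.4% among those averaging 10 CPM or more. The members' median log2 fold change was 0.45, against -0.02 over all genes tested. Ppl was 3.59-fold, Dsp 3.22-fold, and Tjp1 and Cldn23 each 2.12-fold higher. The plot of levels by library shows how small the spread between replicates was beside these differences for most members.

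**Figure D1:**
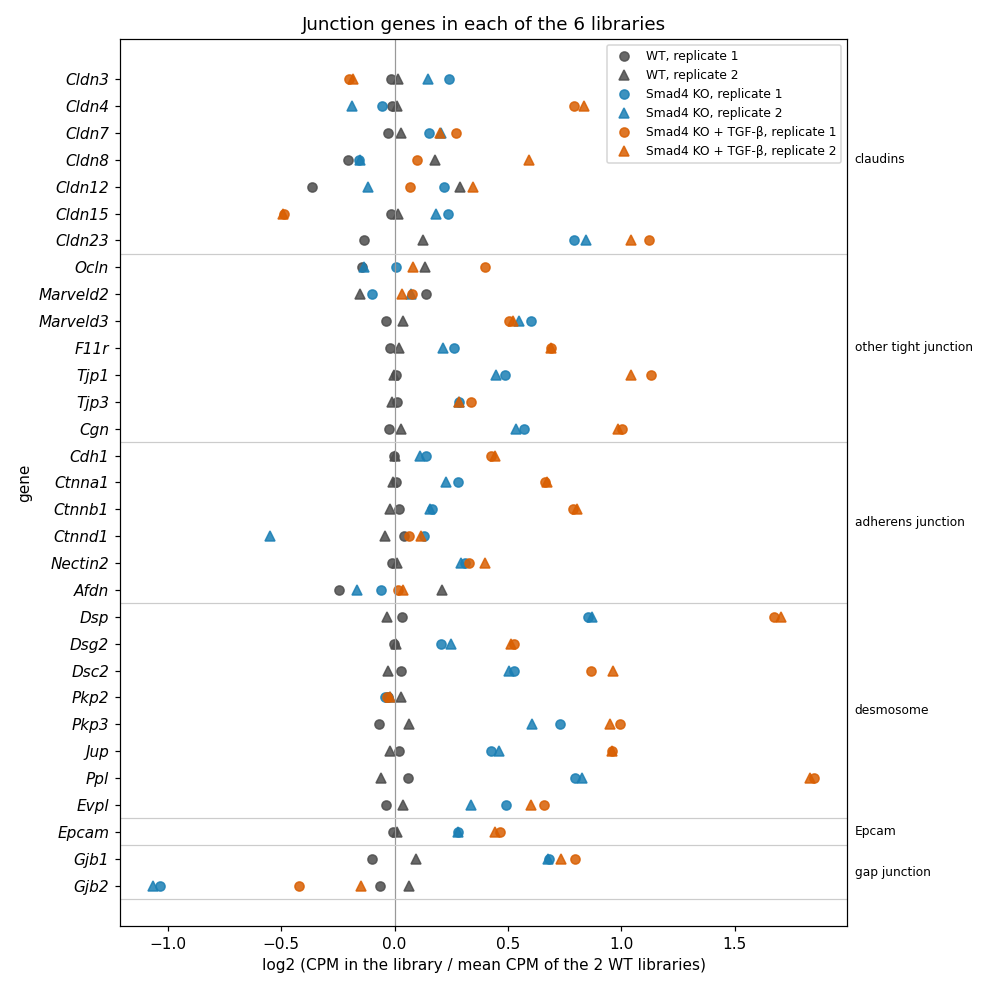
Each row is a junction gene and each point a library, placed by its log2 ratio to the mean of the 2 WT libraries, with circles for replicate 1 and triangles for replicate 2. Cldn1 and Cldn2 are left out because of values at or near 0. Ppl and Dsp lie furthest to the right with TGF-β (orange), Cldn3 and Cldn15 lie to the left of WT in the treated libraries, and Gjb2 lies about 1 unit to the left in untreated Smad4 KO (blue).

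The kinds of junction differed in how far their genes moved. Of 8 desmosome genes, 7 passed in Smad4 KO against WT (median log2 fold change of the 8, 0.48), 6 with TGF-β in Smad4 KO (0.35) and 7 in treated Smad4 KO against WT (0.94), each as higher. Of the 6 adherens junction genes 4, 3 and 4 passed in these comparisons, each as higher (medians 0.14, 0.29 and 0.4). Of the 7 other tight junction genes 5, 3 and 5 passed, each as higher (medians 0.28, 0.31 and 0.51). Claudins were split: of 9, 4 passed in Smad4 KO, each as higher (median 0.06), 1 rose and 2 fell with TGF-β (0.26), and 3 were higher and 2 lower in treated Smad4 KO than in WT (0.21). Of the 2 connexins, 1 rose and 1 fell in Smad4 KO (-0.18), and 1 was higher in each of the treated comparisons (0.43 and 0.24). Over all genes tested, the shares higher and lower were 16.9% and 13.4% in the first comparison and 7.78% and 8.48% in the second. In the third they were 20.7% and 19%. No test of the difference between kinds of junction was made, and the counts and medians describe these lists only.

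Levels can be summed over genes once they are set per length, in CPM per kb of exon. The length is that of all annotated exons of a gene merged, whichever transcripts the cells used. Ranks, sums and ratios between genes depend on this choice. The 8 desmosome genes together stood at 222 and 220 CPM per kb in WT, at 319 in both Smad4 KO libraries and at 463 and 469 with TGF-β. The 6 adherens junction genes stood at 646 and 645, at 728 and 688, and at 924 and 938 CPM per kb. The 8 claudins other than Cldn2 stood at 837 and 866, at 963 and 933, and at 926 and 924 CPM per kb. The desmosome sum thus more than doubled from WT to treated Smad4 KO, while the claudin sums of treated and untreated Smad4 KO lay within 40 units of each other. A large part of the desmosome gain came from Dsp alone, with means of 55.1 CPM per kb in WT and 177 in treated Smad4 KO. Pkp2 stood at 23.5 and 23.1 in the same groups. Among single members Epcam had the highest level per length, with a mean of 499 CPM per kb in WT, followed by Cldn3 (284), Cldn7 (243) and Cdh1 (240). Evpl (5.34) and Ppl (6.56) had the lowest level of the desmosome genes in WT.

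**Figure D2:**
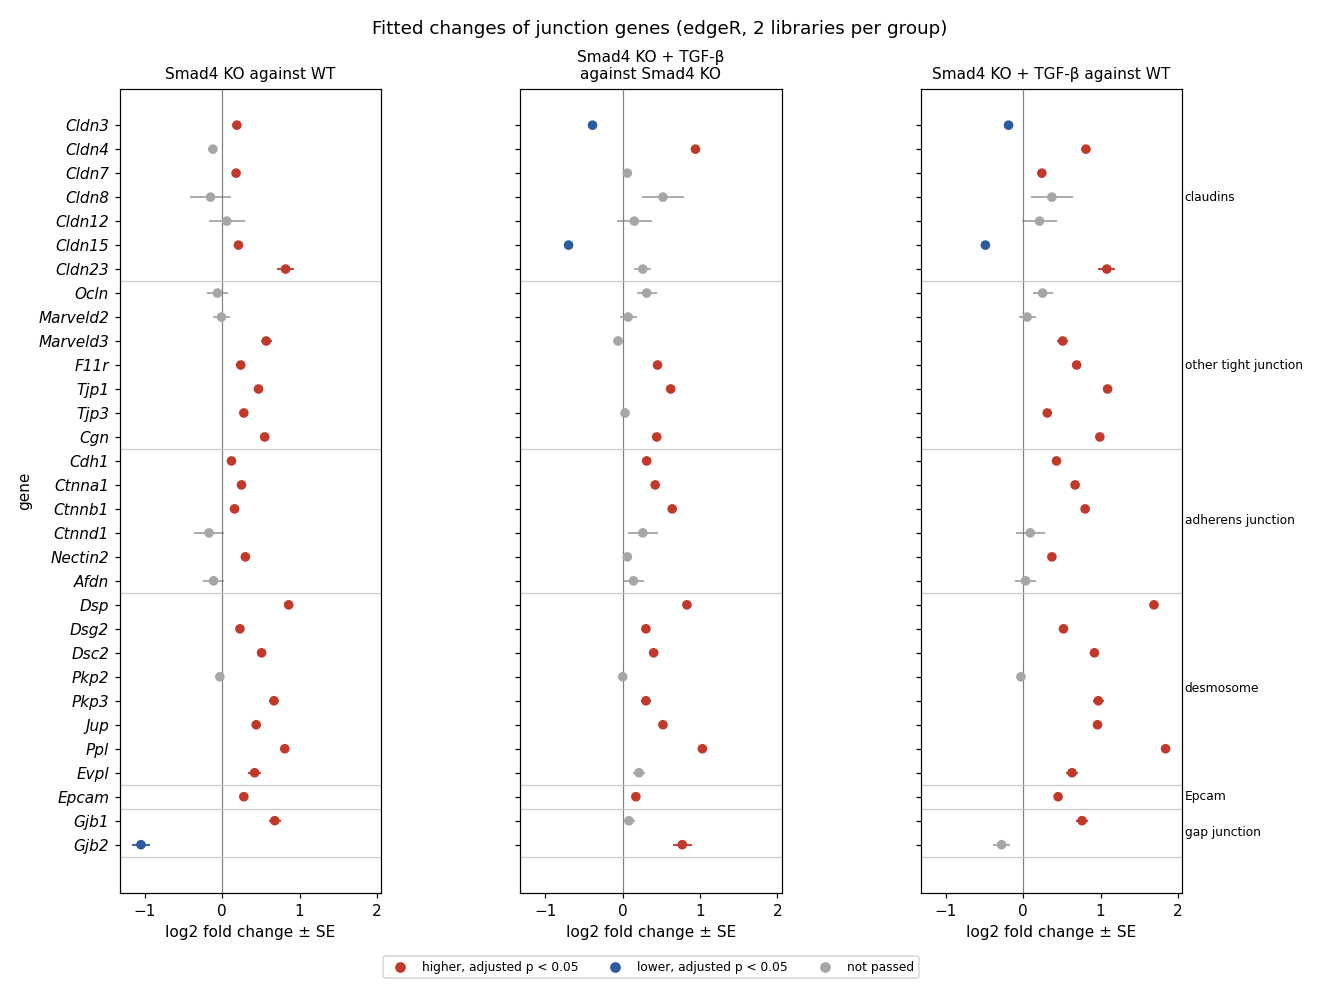
Fitted log2 fold changes of the junction genes (points) with their standard errors (bars) in the 3 comparisons, in red where higher, in blue where lower and in grey where the adjusted p was not under 0.05. Cldn1 and Cldn2, whose standard errors exceed 1, are left out. Cldn3 and Cldn15 are the points in blue in the middle and right panels, and Gjb2 is in blue in the left panel.

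Among claudins, Cldn4 and Cldn15 moved in opposite directions with TGF-β. Cldn4 (chromosome 5, 134945119 to 134946934, 1 exon, minus strand), a barrier claudin, stood at 238.87 and 242.73 CPM in WT, at 231.59 and 211.13 CPM in Smad4 KO, and at 417.25 and 429.54 CPM with TGF-β. Both treated libraries lay well above the other 4. The rise over Smad4 KO was 1.91-fold (log2 fold change 0.94 ± 0.05 SE, edgeR adjusted p = 0.00013). Against WT, Smad4 KO had an adjusted p of 0.13 (log2 fold change -0.12), but Cldn4 passed as lower without Smad4 KO replicate 1 (0.044), with library totals (0.024) and with upper quartile scaling (0.036).

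Cldn15 (chromosome 5, 136966616 to 136975858), which codes for the cation pore of the small intestine, stood at 351.11 and 359.38 CPM in WT, at 417.69 and 403.46 CPM in Smad4 KO, and at 253.1 and 252.78 CPM with TGF-β. The treated libraries were the lowest and the untreated Smad4 KO libraries the highest, with no overlap. The fall with TGF-β was 1.62-fold (log2 fold change -0.70 ± 0.04 SE, edgeR adjusted p = 9.8e-05), and treated Smad4 KO was 1.4-fold below WT (adjusted p = 0.00012). The 1.16-fold rise in Smad4 KO over WT did not pass with library totals (adjusted p = 0.052). Per length, Cldn4 was at 0.796 and 0.79 times the level of Cldn15 in the WT libraries, at 0.648 and 0.612 times in Smad4 KO, and at 1.93 and 1.99 times with TGF-β. Cldn4 was therefore the lower of the pair in untreated organoids and the higher in treated ones.

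Cldn3, which codes for another barrier claudin, lies next to Cldn4 on chromosome 5, with a gap of 39.3 kb and 0 annotated protein-coding genes between them, yet it moved the other way with TGF-β. It stood at 353.65 and 360.91 CPM in WT, at 421.36 and 395.87 CPM in Smad4 KO, and at 310.57 and 314.34 CPM with TGF-β, a fall of 1.31-fold from Smad4 KO (edgeR adjusted p = 0.0016). Its 1.14-fold rise in Smad4 KO over WT (adjusted p = 0.014) did not pass without WT replicate 1 (0.068) or Smad4 KO replicate 1 (0.065), nor with upper quartile scaling (0.06) or library totals (0.12). Neither did its 1.14-fold lower level in treated Smad4 KO than in WT (0.011) without WT replicate 2 (0.057) or treated replicate 1 (0.063). Cldn7, a claudin that binds Epcam, stood at 464.55 and 483.48 CPM in WT, at 526.22 and 546.55 CPM in Smad4 KO, and at 572.28 and 544.78 CPM with TGF-β. Its 1.13-fold rise in Smad4 KO (adjusted p = 0.017) did not pass without WT replicate 1 (0.078) or Smad4 KO replicate 2 (0.083), nor with upper quartile scaling (0.082) or library totals (0.14). Cldn23 stood at 17.34 and 20.76 CPM in WT and at 32.99 and 34.24 CPM in Smad4 KO, a 1.77-fold rise (adjusted p = 0.0023), and at 41.41 and 39.21 CPM with TGF-β, for which the adjusted p against Smad4 KO was 0.17.

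The share of each claudin in the summed claudin level per length, leaving Cldn2 out, shows the change of make-up. Cldn4 made up 15.7% and 15.4% of the sum in WT, 13.2% and 12.5% in Smad4 KO, and 24.8% and 25.6% with TGF-β. Cldn15 made up 19.8% and 19.5%, then 20.4% in both libraries, then 12.9% in both. Cldn3 made up 33.6% and 33.1%, 34.8% and 33.7%, and 26.6% and 27%. Cldn7 stayed between 28.1% and 31.7% in all 6 libraries. These shares are tied to each other, since a rise of one lowers the rest.

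**Figure D3:**
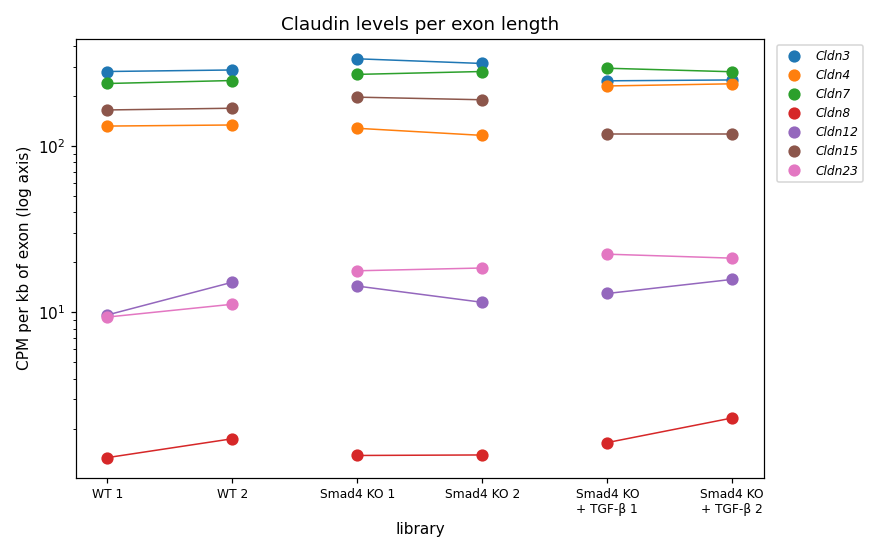
Levels of 7 claudins in CPM per kb of exon on a log axis, with 1 point per library and a line joining the replicates of a group. Cldn4 (orange) crosses above Cldn15 (brown) in the treated libraries and comes near Cldn3 (blue). Cldn1 and Cldn2 are left out.

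Of the remaining claudins, Cldn8 (3.15 to 5.47 CPM over the 6 libraries) and Cldn12 (40.85 to 66.78 CPM) did not pass in any comparison, and their groups overlapped in part. Cldn1 was close to the limit of detection, between 0 and 0.4 CPM, and no change was detectable at this depth. Cldn12 differed between the WT libraries, at 40.85 and 64.21 CPM, and passed as higher in treated Smad4 KO than in WT without WT replicate 2 and Smad4 KO replicate 1 (edgeR adjusted p = 0.044). Values of Cldn2, the second pore claudin, could not be used for a comparison. Cldn2 (X chromosome, 139800828 to 139811386, plus strand) stood at 378.92 and 0.39 CPM in WT, at 0.28 and 268.69 CPM in Smad4 KO, and at 202.51 and 223.31 CPM with TGF-β. In counts, WT replicate 2 had 17 and Smad4 KO replicate 1 had 11, against 8753 to 19841 in the other 4 libraries. The test gave an adjusted p of at least 0.9 in each comparison.

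**Figure D4:**
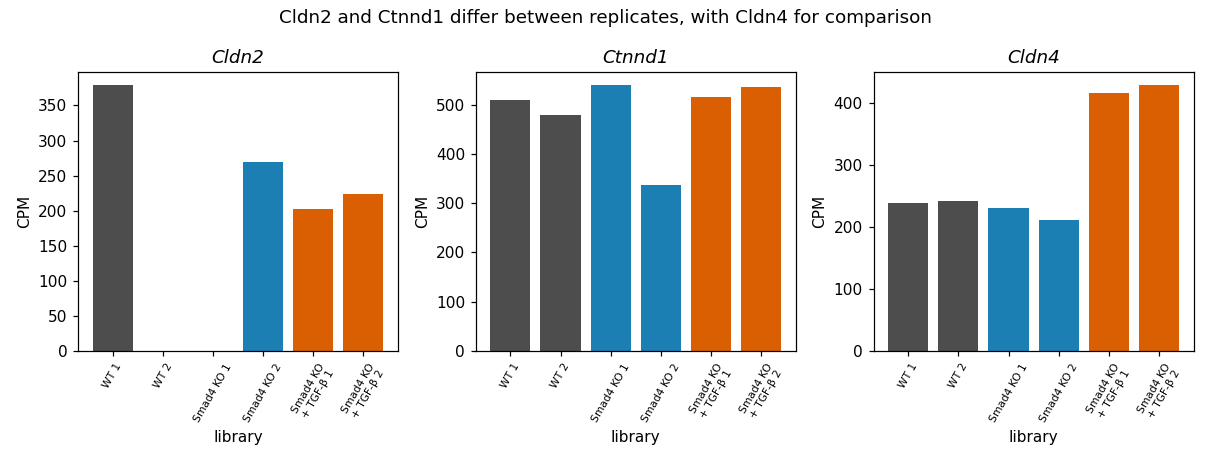
Levels in CPM of Cldn2, Ctnnd1 and Cldn4 in each of the 6 libraries as bars from 0. Cldn2 is near 0 in WT replicate 2 and Smad4 KO replicate 1, and Ctnnd1 is lowest in Smad4 KO replicate 2, while the replicates of Cldn4 lie close together.

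Among the tight junction genes other than claudins, Tjp1, Cgn and F11r rose in both steps. Tjp1, which codes for ZO-1, the protein that gathers claudins into strands and ties them to actin, stood at 162.62 and 161.55 CPM in WT, at 227.16 and 221.22 CPM in Smad4 KO, and at 354.92 and 333.53 CPM with TGF-β. No 2 groups overlapped, and the rise was 1.38-fold with Smad4 loss (edgeR adjusted p = 0.00062) and 1.54-fold with TGF-β (0.00037). Cgn, which codes for cingulin of the cytoplasmic plaque, stood at 177.11 and 183.73 CPM, then at 267.65 and 261.7 CPM, then at 361.01 and 357.68 CPM. F11r, which codes for JAM-A, an immunoglobulin-like adhesion protein, rose 1.18-fold and 1.37-fold in these comparisons.

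Tjp3 (ZO-3) and Marveld3 rose with Smad4 loss, 1.22-fold and 1.49-fold, and had log2 fold changes of 0.03 and -0.06 with TGF-β (adjusted p = 0.71 and 0.61). Ocln (occludin, 137.81 to 200.84 CPM over the 6 libraries) and Marveld2 (tricellulin, which seals the corners where cells meet, 43.31 to 52.9 CPM) did not pass in any comparison. Marveld2 overlapped between all groups, and the WT libraries of Ocln overlapped with both Smad4 KO groups. Ocln and Marveld2 are neighbours on chromosome 13, 43.2 kb apart.

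At the adherens junction the cadherin and 2 of its catenins rose together. Cdh1, which codes for E-cadherin, stood at 1095.08 and 1098.35 CPM in WT, at 1207.24 and 1184.18 CPM in Smad4 KO, and at 1472.15 and 1490.01 CPM with TGF-β. The groups did not overlap, but the step from WT to Smad4 KO was only 1.09-fold (edgeR adjusted p = 0.0048) and did not pass with library totals (0.3) or upper quartile scaling (0.075). The step to the treated group was 1.24-fold (0.00022). Ctnnb1 codes for β-catenin, which serves both this junction and Wnt signalling. It stood at 940.81 and 915.85 CPM, then at 1042.09 and 1033.06 CPM, then at 1603.58 and 1621.69 CPM. Its rise with TGF-β was 1.55-fold (adjusted p = 2.5e-05), and its 1.12-fold rise with Smad4 loss did not pass with library totals (0.066). About 15.1% of its exon length overlaps other genes, among them Ulk4 on the opposite strand.

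Ctnna1, which codes for α-catenin, the link to actin, rose 1.19-fold with Smad4 loss and 1.33-fold with TGF-β. Nectin2, an adhesion molecule of the same junction, rose 1.23-fold with Smad4 loss (adjusted p = 0.0031) and had an adjusted p of 0.41 with TGF-β. Ctnnd1, which codes for p120-catenin, stood at 508.4 and 478.9 CPM in WT, at 539.33 and 337.67 CPM in Smad4 KO and at 515.69 and 535.52 CPM with TGF-β. It did not pass in any comparison, and Smad4 KO replicate 2 stood apart from the other 5 libraries. Without Smad4 KO replicate 1 it passed as lower in Smad4 KO (log2 fold change -0.55, adjusted p = 0.0025) and as higher with TGF-β (0.64, 0.003). Since 61.2% of the exon length of Ctnnd1 is shared with Gm28635 on the same strand, its counts are uncertain. Afdn, which codes for afadin, the partner of nectins, stood at 182.44 and 250.26 CPM in WT, which spans the other 4 libraries (192.87 to 222.19 CPM). It did not pass with all libraries. It passed as lower in Smad4 KO without WT replicate 1 (adjusted p = 0.025), and as higher in treated Smad4 KO than in WT without WT replicate 2 (0.031) or without both that library and Smad4 KO replicate 1 (0.021).

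Among desmosome genes, Dsp and Ppl differed most between treated Smad4 KO and WT. Dsp (chromosome 13, 38151294 to 38198577, plus strand) codes for desmoplakin, which ties the plaque to keratin. It stood at 544.02 and 520.47 CPM in WT, at 962.52 and 972.97 CPM in Smad4 KO, and at 1695.8 and 1733.05 CPM with TGF-β. The groups were far apart: the log2 fold change was 0.86 ± 0.03 SE with Smad4 loss (edgeR adjusted p = 5.9e-06), 0.83 ± 0.03 with TGF-β (2.4e-05) and 1.69 ± 0.03 between treated Smad4 KO and WT (3.9e-07). Ppl (chromosome 16, 5086291 to 5132421, minus strand) codes for periplakin, a relative of desmoplakin in the same family of linker proteins. It stood at 47.08 and 43.35 CPM, then at 78.57 and 80.11 CPM, then at 163.13 and 161.2 CPM. Its log2 fold changes were 0.81 ± 0.06 SE (adjusted p = 0.00021), 1.03 ± 0.06 (0.00015) and 1.84 ± 0.06 (5e-06).

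Jup codes for plakoglobin, the desmosomal relative of β-catenin. It stood at 268.57 and 260.96 CPM in WT, at 355.34 and 363.96 CPM in Smad4 KO, and at 515.23 and 514.71 CPM with TGF-β, with no overlap. Per length it was at 0.23 times the level of Ctnnb1 in both WT libraries, at 0.275 and 0.284 times in Smad4 KO and at 0.259 and 0.256 times with TGF-β. The desmosomal cadherins also rose in both steps. Dsc2 (desmocollin-2) rose 1.43-fold with Smad4 loss and 1.32-fold with TGF-β, and Dsg2 (desmoglein-2) 1.17-fold and 1.23-fold. Per length Dsg2 stood at 1.09 and 1.15 times Dsc2 in WT, at 0.894 and 0.938 times in Smad4 KO, and at 0.886 and 0.82 times with TGF-β.

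The plakophilins, which bind desmoplakin at the plaque, were split. Pkp3 stood at 65.41 and 71.78 CPM in WT and at 113.57 and 104.54 CPM in Smad4 KO, a 1.59-fold rise (edgeR adjusted p = 0.00089). With TGF-β it stood at 136.52 and 132.32 CPM. That 1.23-fold rise (adjusted p = 0.033) did not pass in any fit that left out a single Smad4 KO library, untreated or treated. The log2 fold change was 0.36 and 0.24 without Smad4 KO replicates 1 and 2. Without treated replicates 1 and 2 it was 0.28 and 0.32. With a replicate block the adjusted p was 0.063. Pkp2 lay between 122.53 and 128.67 CPM in all 6 libraries, with log2 fold changes of -0.03, 0.00 and -0.03, each ± 0.05 SE. Evpl (envoplakin) rose 1.34-fold with Smad4 loss (adjusted p = 0.011), although not without WT replicate 1 (0.063) or Smad4 KO replicate 1 (0.06), and was 1.55-fold higher in treated Smad4 KO than in WT (0.0015).

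Epcam, an adhesion molecule of the lateral membrane that holds claudin-7, stood at 1087.78 and 1101.88 CPM in WT, at 1330.18 and 1330.89 CPM in Smad4 KO and at 1509.79 and 1486.72 CPM with TGF-β. The rises were 1.22-fold (edgeR adjusted p = 0.00014) and 1.13-fold (0.002).

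The 2 connexins of the list went apart when Smad4 was lost. Gjb2 (connexin 26, chromosome 14, 57098600 to 57104702, minus strand) stood at 38.48 and 42.05 CPM in WT, at 19.67 and 19.23 CPM in Smad4 KO, and at 30.1 and 36.34 CPM with TGF-β. Untreated Smad4 KO was the lowest group, 2.07-fold below WT (log2 fold change -1.05 ± 0.12 SE, edgeR adjusted p = 0.001), and the treated group was 1.71-fold above it (0.0062). Between treated Smad4 KO and WT the adjusted p was 0.1 (log2 fold change -0.28), but Gjb2 passed as lower without treated replicate 2 (0.048). Gjb1 (connexin 32) stood at 33.12 and 37.88 CPM in WT, at 56.96 and 56.79 CPM in Smad4 KO, and at 61.59 and 58.96 CPM with TGF-β. It rose 1.6-fold with Smad4 loss (adjusted p = 0.0017). Per length, Gjb2 was at 0.824 and 0.788 times Gjb1 in WT, at 0.245 and 0.24 times in Smad4 KO and at 0.347 and 0.437 times with TGF-β.

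A wider list of 77 genes, of junctions and of the keratins that desmosomes anchor, was examined beside the members. Of them 52 passed the filter on low counts. Of these 52, 19 rose and 4 fell in Smad4 KO (16.9% and 13.4% of all genes tested), 20 rose and 2 fell with TGF-β (7.78% and 8.48%), and 27 were higher and 2 lower in treated Smad4 KO than in WT (20.7% and 19%). Those that fell in Smad4 KO, named after their values were seen, were Cldn18 (3.82-fold, from 3.36 and 3.54 CPM), Pkp1 (1.25-fold), Nectin1 (1.33-fold) and Pvr (1.24-fold). With TGF-β, Nectin1 fell by a further 1.42-fold, while Pkp1, another plakophilin, rose 2.06-fold and Pvr 1.42-fold. Cgnl1, which codes for paracingulin, a relative of cingulin, stood at 42.22 and 43.19 CPM in WT, at 49.4 and 45.64 CPM in Smad4 KO, and at 189.69 and 180.72 CPM with TGF-β, a rise of 3.9-fold over Smad4 KO (edgeR adjusted p = 2.4e-05). Its untreated groups lay close together. Ildr1, an angulin that recruits tricellulin to cell corners, rose 3.31-fold with TGF-β, from 13.31 and 13.73 CPM to 43.03 and 46.37 CPM, while tricellulin (Marveld2) itself did not pass. Nectin4 rose 4.15-fold with TGF-β, from 3.49 and 4.31 CPM to 17.21 and 15.14 CPM.

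Keratins form the filaments that desmosomes anchor, and Krt7, Krt8, Krt18, Krt19 and Krt20 are counted in the wider list above. Krt7, Krt8, Krt19 and Krt20 are among the 19 of that list that rose in Smad4 KO. Krt7, Krt8, Krt18 and Krt19 are among the 20 that rose with TGF-β. Krt7 stood at 257.88 and 246.18 CPM in WT, at 463.18 and 474.49 CPM in Smad4 KO, and at 1251.11 and 1244.77 CPM with TGF-β, rising 1.86-fold (edgeR adjusted p = 9.2e-06) and then 2.66-fold (6.4e-06). Krt20, a keratin of differentiated cells, rose 3.08-fold with Smad4 loss and then fell 1.15-fold with TGF-β (adjusted p = 0.04). Krt18, a main keratin of simple epithelia, is named here although its log2 fold change stayed under 1 in every comparison. It had an adjusted p of 0.75 with Smad4 loss and rose 1.69-fold with TGF-β (2.9e-05). Krt8 and Krt19 rose in both steps. Krt8 rose 1.57-fold with Smad4 loss and 1.47-fold with TGF-β, and Krt19 1.89-fold and 1.68-fold.

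Factors known to act on junction genes were measured too. Of 6 transcriptional repressors, Zeb1, Zeb2, Twist1 and Twist2 were at 0 in all 6 libraries, which allows a level of up to 0.0456 CPM over the 6. Snai1 was at or under 0.32 CPM in each library. Snai2 stood at 1.64 and 1.83 CPM in WT, at 0.23 and 0 CPM in Smad4 KO and at 0 in both treated libraries. It was at least 12.6-fold lower in treated Smad4 KO than in WT (edgeR adjusted p = 0.019). Smad4 KO against WT did not pass (0.085), nor did treated against untreated Smad4 KO (0.22). Among 15 epithelial transcription factors 8 passed in Smad4 KO, each as higher (16.9% of all genes tested were higher), and 5 rose and 3 fell with TGF-β (7.78% and 8.48%). Grhl3, a grainyhead factor of barrier epithelia, stood at 2.35 and 1.64 CPM in WT, at 8.07 and 9.86 CPM in Smad4 KO, and at 36.07 and 38.16 CPM with TGF-β, a 4.47-fold and then a 4.14-fold rise. Its relative Grhl2, added here after its values were seen, did not pass in any comparison, with 26.13 CPM in treated replicate 2 and 47.72 to 56.5 CPM in the other 5 libraries. Hnf4g, a factor of enterocyte identity, rose 3.21-fold in Smad4 KO (68.83 and 68.98 to 215.1 and 227.04 CPM) and was at 117.37 and 112.64 CPM with TGF-β. Ovol2 rose 2.31-fold with Smad4 loss, from 2.5 and 2.83 to 5.83 and 6.47 CPM. In the same libraries 7 squamous epithelium markers summed to 3.56 to 4.74 CPM in WT, 3.39 to 3.64 CPM in Smad4 KO and 9.78 to 10.2 CPM with TGF-β, with Krt5 at 0 in every library. Of these markers, Krt14 was at 0 in WT and Smad4 KO and at 1.39 and 0.93 CPM with TGF-β, and Ivl stood at 0.17 and 0 CPM in WT, at 1.17 and 0.5 CPM in Smad4 KO, and at 5.53 and 5.68 CPM with TGF-β. Both passed as higher in treated Smad4 KO than in WT (edgeR adjusted p = 0.013 and 0.0036). Of the 7 markers only 3 passed the filter on low counts. The third of these had a log2 fold change of -0.55 in this comparison and did not pass.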

How the data were processed

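The authors deposited estimated counts per Ensembl gene, already whole numbers, with a column for each library. The submitters' processing notes name StringTie 1.3.3b, HISAT2 2.1.0, SAMtools 1.9, FastQC 0.11.9 and the build GRCm38 (mm10). Annotation release, strand setting and read length are not stated there, so antisense partners cannot be told apart. Of values from 1 to 24, 42.3% were multiples of 4 (25% if even), so 1 fragment was taken as about 4 counts, and limits for genes at 0 use 3 such fragments (12 counts, counting error only). After filterByExpr, 15503 genes were fitted with edgeR 4.0.16 (R 4.3.3): TMM scaling, quasi-likelihood test, 2-sided, over the 6 libraries together, with only the group in the model and 3 residual degrees of freedom. p-values were adjusted by Benjamini-Hochberg over all genes tested, with a threshold of 0.05. DESeq2 1.42.0, other scalings and filters, and leaving out libraries were tried as alternatives. Positions and exon lengths come from GENCODE vM21 (GRCm38).

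The members and gene lists were chosen with earlier results of these data known. All 33 members were named, Smad4, the 6 repressors by their levels, and from the wider lists genes that passed with a log2 fold change over 1 either way whose higher group averaged 5 CPM or more, at most 6 per comparison; some of these genes are not reported here. Of 208 listed symbols, 205 were on 1 row of the table. Shares among genes averaging 10 CPM or more were added after seeing the data.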

Additional observations from a re-analysis of the deposited data

How the results depend on the processing

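Each comparison was recomputed with 14 other settings. DESeq2, DESeq2 size factors within edgeR, no filter on low counts and the fit on only the 4 libraries compared changed no member's call, nor did values divided by 4, where Cldn1 was not tested. Other scalings changed the members' counts in the first comparison only, Smad4 KO against WT. There 19 members were higher and 2 lower with upper quartile scaling, and 17 and 2 with library totals, in place of 22 and 1. Cldn3, Cldn7 and Cdh1 no longer passed with either scaling, nor did Cldn15 and Ctnnb1 with library totals. Cldn4 passed as lower with both. The balance over all genes turned more widely: library totals gave 1495 genes higher and 1108 lower with TGF-β, in place of 1206 and 1315, and 2934 and 3310 in treated Smad4 KO against WT, in place of 3216 and 2939 (upper quartile 2783 and 3546). Leaving out 1 library at a time gave, for Smad4 KO against WT, 19 to 22 members higher and 1 to 3 lower, with 1166 to 1867 genes lower. For TGF-β in Smad4 KO it gave 14 to 15 members higher and 2 lower, with 656 to 1108 genes higher and 848 to 1196 lower, and for treated Smad4 KO against WT 21 to 22 members higher and 1 to 3 lower. Where this leaves 1 library in a group, that library is assumed to vary like the other groups. The numbers do not pair the samples (correlations of the replicate difference between groups 0.003, 0.012 and 0.01), and a replicate block changed 1 call, that of Pkp3, leaving 14 members higher with TGF-β in place of 15. A fit without the 2 libraries in which Cldn2 was near 0, chosen after seeing the data and with 1 WT and 1 untreated Smad4 KO library left, gave 15 members higher and 3 lower in Smad4 KO, with 1698 genes higher and 876 lower, and 832 genes lower with TGF-β. Cldn3, Cldn7, Cldn15, F11r, Cdh1, Ctnnb1 and Evpl no longer passed in Smad4 KO against WT there; the cause was not tested beyond the fewer libraries. In it Cldn2 had a log2 fold change of -0.83 in treated Smad4 KO against WT, in place of 0.17. Since the libraries were left out for their Cldn2 values, this is no test of Cldn2. Genes at a few counts, such as Cldn1, are limited by depth.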

Other observations

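The gap between replicates of Cldn2 was rare in these libraries. Of 4779 genes with at least 50 CPM in the higher WT library, 1 differed more than 100-fold between the WT libraries, and that was Cldn2. In Smad4 KO 2 of 4933 such genes did, Cldn2 and Sept2, and with TGF-β 0 of 4894 did. This count was made after the values of Cldn2 were seen. The nearest protein-coding gene downstream, Morc4, stood at 25.99 and 26.01 CPM in WT, at 15.68 and 17.37 CPM in Smad4 KO and at 26.28 and 26.58 CPM with TGF-β, with its replicates close together.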
